A study of Mus musculus with 23 samples.

Results

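The 10 genes described here are tandem-copy genes of the 2-cell embryo other than the Zscan4 family: Tcstv1, Tcstv3, Gm20767, Gm4340, Gm2016, Gm2022, Gm8300, Gm12794, Gm13119 and Usp17lc. They were listed by name as members of multicopy 2-cell clusters, and all 10 were found among the 53715 genes in each of the 3 expression tables. RNA sequencing covered 23 mouse libraries in 9 groups, and the values were TPM (a transcript abundance scaled for transcript length and to a fixed total per library). The 15 embryonic stem (ES) cell libraries comprised 3 untreated wild-type, 3 Lin28a knockout (Lin28a-null), 3 labelled as Lin28b knockout, and 3 libraries each of the ilet7 line without drug and after 3 days of doxycycline. The 6 induced pluripotent stem (iPS) cell libraries, from cells reprogrammed from mouse embryonic fibroblasts, comprised 3 untreated wild-type and 3 labelled as Lin28a and Lin28b double knockout. The 2 embryo libraries were 1 pool of C57BL/6J control embryos and 1 pool injected with small interfering RNA (siRNA) against Lin28a. The methods describe injection of a non-targeting siRNA as the control, while the control library is titled only as wild type. In ilet7 cells doxycycline switches on a let-7 transgene, and the untreated cells carry that transgene too. All ES and iPS cells were grown on fibroblast feeders in medium with LIF and 2 kinase inhibitors (2i), and per the extraction protocol in the labels the feeders were depleted before lysis. According to the methods, the knockout ES lines were made by CRISPR with single clones picked or were derived from knockout mice, and which libraries came from which source was not given. The methods give ages only for the parents of the embryos, and the stage of the sequenced pools was not given there.

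The mouse embryo switches on its own genome at the 2-cell stage, and a burst of multicopy genes and retroviral elements marks that step. A small fraction of cultured ES cells passes in and out of a state with the same RNAs, called 2C-like. LIN28A and LIN28B bind RNA and hold back the processing of let-7 microRNA precursors, so the design asks what loss of LIN28 and gain of let-7 do to such genes. Tcstv1 and Tcstv3 belong to the 2-cell-stage variable group and have been linked to telomere lengthening in mouse ES cells. Gm2016, Gm2022 and Gm8300 are copies of the gene for eIF1A, a translation initiation factor that helps the small ribosomal subunit find the start codon. Gm12794 and Gm13119 encode PRAME-like proteins with leucine-rich repeats (RefSeq names Pramel19 and Pramel31), and Usp17lc, also known as DUB-2, encodes a deubiquitinating enzyme. Because bulk RNA was measured, more cells in the 2C-like state and more RNA per such cell cannot be told apart in any result given here.

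The coding sequences show how close these copies are to each other and to their single-copy relatives, which bears on every value, because only uniquely mapped reads were kept upstream. The GRCm38 positions of the 3 eIF1A-like genes are chr12:87874072-87877859 for Gm2016, chr12:87895370-87895804 for Gm2022 and chr12:87514316-87518266 for Gm8300, all on the plus strand. Each has a coding sequence of 432 bases without the stop codon, as has Eif1ax, the X-linked gene for eIF1A. Their end, coding bases 310 to 429, is printed with the 19 positions at which any of the 4 genes differs in capitals.
Gm2016: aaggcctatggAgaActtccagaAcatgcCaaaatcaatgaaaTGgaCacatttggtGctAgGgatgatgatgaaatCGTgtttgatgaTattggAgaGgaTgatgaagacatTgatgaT
Gm2022: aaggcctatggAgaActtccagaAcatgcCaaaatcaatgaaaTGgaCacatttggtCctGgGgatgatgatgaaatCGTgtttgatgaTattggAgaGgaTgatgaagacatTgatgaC
Gm8300: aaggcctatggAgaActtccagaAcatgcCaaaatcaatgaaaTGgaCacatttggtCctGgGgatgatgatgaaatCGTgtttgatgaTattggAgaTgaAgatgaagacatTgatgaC
Eif1ax: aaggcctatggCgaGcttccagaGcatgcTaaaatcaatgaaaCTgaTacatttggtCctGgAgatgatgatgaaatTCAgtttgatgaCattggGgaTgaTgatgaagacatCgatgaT
Among the 3 tandem copies 5 of these positions differed, and most capitals set all of them apart from Eif1ax. Over the whole coding sequence the copies were 98.1 to 98.8% identical to each other and 84.7 to 85.0% identical to Eif1ax. Closer copies stood beside them: Gm2016 was 99.1% identical to Gm5662, and Gm8300 was 99.5% identical to Gm8332.

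Tcstv1 (chr13:119893388-119894785, minus strand), Tcstv3 (chr13:120316878-120318178, plus strand) and Gm20767 (chr13:120140246-120155335, plus strand) share a cluster on chromosome 13. Gm20767 was placed with the Tcstv genes by its sequence, since its coding sequence was 93.6% identical to that of Tcstv1 and 93.7% identical to that of Tcstv3. Coding bases 31 to 150 are shown because they hold 12 positions, in capitals, that tell the 3 genes apart.
Tcstv1: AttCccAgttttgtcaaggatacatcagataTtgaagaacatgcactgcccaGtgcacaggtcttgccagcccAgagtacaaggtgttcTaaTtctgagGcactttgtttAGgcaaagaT
Tcstv3: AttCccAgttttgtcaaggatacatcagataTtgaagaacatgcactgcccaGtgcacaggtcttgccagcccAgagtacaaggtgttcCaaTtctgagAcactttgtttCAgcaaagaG
Gm20767: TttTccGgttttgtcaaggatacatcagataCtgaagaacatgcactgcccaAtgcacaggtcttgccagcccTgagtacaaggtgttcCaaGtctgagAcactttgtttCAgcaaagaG
Their closest copies were other genes of the cluster: Gm21818 for Tcstv1 (96.3%), AF067061 for Tcstv3 (94.7%) and Gm21761 for Gm20767 (97.1%).

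Usp17lc (chr7:103415072-103419880, plus strand) was 98.4% identical to Usp17ld over 1635 coding bases, and the stretch of coding bases 1372 to 1491 holds 7 of their differences, again in capitals.
Usp17lc: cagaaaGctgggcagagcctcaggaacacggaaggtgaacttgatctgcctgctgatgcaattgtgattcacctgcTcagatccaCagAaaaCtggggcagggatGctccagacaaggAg
Usp17ld: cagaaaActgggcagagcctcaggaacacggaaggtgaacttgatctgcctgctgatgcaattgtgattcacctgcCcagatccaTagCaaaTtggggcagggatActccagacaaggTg
Gm12794 (chr4:101940407-101943183, plus strand) was 96.6% identical to its neighbour Gm12800. Coding bases 37 to 156 of that pair, with 6 differences in capitals, show the single-base differences by which a read can be assigned to one gene of the pair.
Gm12794: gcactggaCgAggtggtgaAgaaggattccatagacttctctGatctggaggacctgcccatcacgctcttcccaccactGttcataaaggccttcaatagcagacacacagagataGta
Gm12800: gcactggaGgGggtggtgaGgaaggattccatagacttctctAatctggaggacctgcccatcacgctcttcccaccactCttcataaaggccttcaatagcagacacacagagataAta
Gm13119 (chr4:144357942-144364419, plus strand) lies elsewhere on chromosome 4 and was 71.2% identical to Gm12794. Gm4340 (chr10:104194042-104196522, plus strand) was 98.9% identical to Gm21293, 1 of 7 coding genes of its cluster on chromosome 10.

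How far a read can be assigned to each copy was estimated as the share of 150-base stretches of its transcript with no exact match in another annotated gene's transcripts. Genome sequence outside annotated transcripts and inexact matches were not searched, although reads were mapped to the whole genome upstream. All 150-base stretches were unique by this estimate for Tcstv1 and Tcstv3, and nearly all for Gm8300 (97.0%) and Gm13119 (94.6%). The share was 80.1% for Gm2022, 72.8% for Gm20767, 70.6% for Usp17lc, 65.4% for Gm12794 and 56.3% for Gm2016. It was 10.3% for Gm4340, whose values therefore rest on a short part of its transcript. The methods give a read length, 150 bases, for the embryo libraries only, and shorter stretches gave lower shares for every gene. With 100-base stretches the share was 33.3% for Gm2022, 35.3% for Gm2016 and 56.1% for Gm20767. With 50-base stretches it was 2.85%, 18.7% and 29.8% for these genes, and 1.16% for Gm4340. The study's own primer pair for Gm4340, forward aatcgaggcactgggtctaag and reverse gccgcccctatttttgctttg, matched transcripts of 7 and 9 genes respectively, all 7 of the forward matches in that cluster. By contrast, the pair for Gm12794, forward atgagtatgtgaggctatgctgt and reverse caaggggcaaagcaacttaga, matched 1 gene each. The values of near-identical copies are accordingly uncertain as to which copy they came from, most of all for Gm4340, Gm2016 and, if reads were shorter, Gm2022. A family sum is given below for the eIF1A-like genes in wild-type and Lin28a-null ES cells. It leaves out the close copies Gm5662 and Gm8332, so it lessens that uncertainty only in part, and no such sum is given for Gm4340.

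Promoter windows from RefSeq (GRCm38.p6, spanning the annotated start site) were held for 4 of the 10 genes: Gm12794, Gm13119, Usp17lc and Gm4340. The letters TATAAA, searched on both strands, stood in 2 of these 4 windows, against 13.6% of 32851 windows of all genes. Those 2 are shown around the match, which is in capitals.
Gm13119, chr4:144357872-144357931, plus strand: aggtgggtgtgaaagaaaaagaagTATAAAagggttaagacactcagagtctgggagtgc
Usp17lc, chr7:103416584-103416643, plus strand: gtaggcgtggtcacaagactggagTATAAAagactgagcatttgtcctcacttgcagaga
The match began 68 bases before the RefSeq start site in Gm13119 and 88 bases before it in Usp17lc. A match is a description of the sequence only.

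The labels were checked on the targeted genes before the 10 genes were compared. Lin28a lay at 31.5, 61.2 and 32 TPM in the 3 wild-type ES libraries and at 14.6, 21 and 15.8 TPM in the Lin28a-null libraries, so it was lower but not at 0 (log2 change −1.18 ± 0.27 SE, limma adjusted p = 0.0135; −0.87 without wild-type library 2, adjusted p = 0.00696). Lin28b went against its label: it lay at 3.63, 5.18 and 4.69 TPM in wild-type ES cells and at 12.5, 13.8 and 12.6 TPM in the libraries labelled Lin28b-null (log2 change 1.35 ± 0.17, adjusted p = 0.00141; 1.44 without wild-type library 2). It was also higher in the libraries labelled double knockout, at 10.3, 10.4 and 11.6 TPM against 4.14, 2.16 and 2.17 TPM in wild-type iPS cells, where Lin28a was lower (log2 change −1.13, adjusted p = 0.0313). A gene-level value can count reads from a transcript that no longer encodes its protein, so it checks the RNA only, and both groups are called by their labels throughout. Doxycycline lowered Lin28a from 20.4 to 24.9 TPM in control ilet7 cells to 6.26 to 7.32 TPM (log2 change −1.61 ± 0.11, adjusted p = 0.000552).

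One library stood apart for these genes. Wild-type ES library 2 held the lowest wild-type value for 10 of 10 genes and was under 1 TPM for 8 of them. The mean of the other 2 wild-type libraries was between 7.37 times (Gm13119) and 98.6 times (Gm20767) its value, and Tcstv1 and Tcstv3 were listed at 0 in it. Lin28a was highest there, at 61.2 TPM, and so was the summed level of the feeder markers, at 3772 TPM against 2029 and 2220 TPM. The comparisons of the 10 genes, their clusters and the gene and marker lists with wild-type ES cells are therefore also given without this library, which for all but the 10 genes was decided after seeing the data. The library was singled out on the values of the 10 genes themselves. Leaving it out thus raises their wild-type means and narrows their wild-type spread by selection, and calls of these genes without it are a description. The 7 pluripotency markers were above 0 in every cell library (summed level 4391 to 5865 TPM in ES and 3156 to 3712 TPM in iPS libraries), and 14621 to 17923 genes reached 1 TPM per library.

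Across the ES cells the 10 genes kept nearly 1 order of group means: highest in Lin28a-null cells, then doxycycline-treated ilet7, then control ilet7, for 10 of 10 genes. Wild-type cells came next for 9 genes, and the labelled Lin28b-null cells came next for Tcstv1. The Lin28a-null libraries lay wholly above the doxycycline libraries for 9 of the 10, the exception being Tcstv3, where 28.3% of all genes did so. Doxycycline libraries lay wholly above control libraries for all 10 (26.9% of all genes) and control ilet7 above wild type for 8 (20.9%, or 8 against 32.3% without wild-type library 2). Wild-type libraries lay wholly above labelled Lin28b-null libraries for 0 of the 10 (24.2% of all genes), and without wild-type library 2 for 8 (28.9%), all but Tcstv1 and Gm20767. The summed level of the 10 genes was 758 ± 30.9 TPM (SD, n = 3) in Lin28a-null, 273 ± 21.7 in doxycycline-treated and 130 ± 10.6 in control ilet7 cells. It was 67.0 ± 53.0 TPM in wild-type cells (94.9, 5.87 and 100.4 TPM by library) and 17.7 ± 14.8 TPM in labelled Lin28b-null cells, where the spread between libraries was nearly as large as the mean. The genes were listed with earlier results of these data known, so this order is a description.

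**Figure D1:**
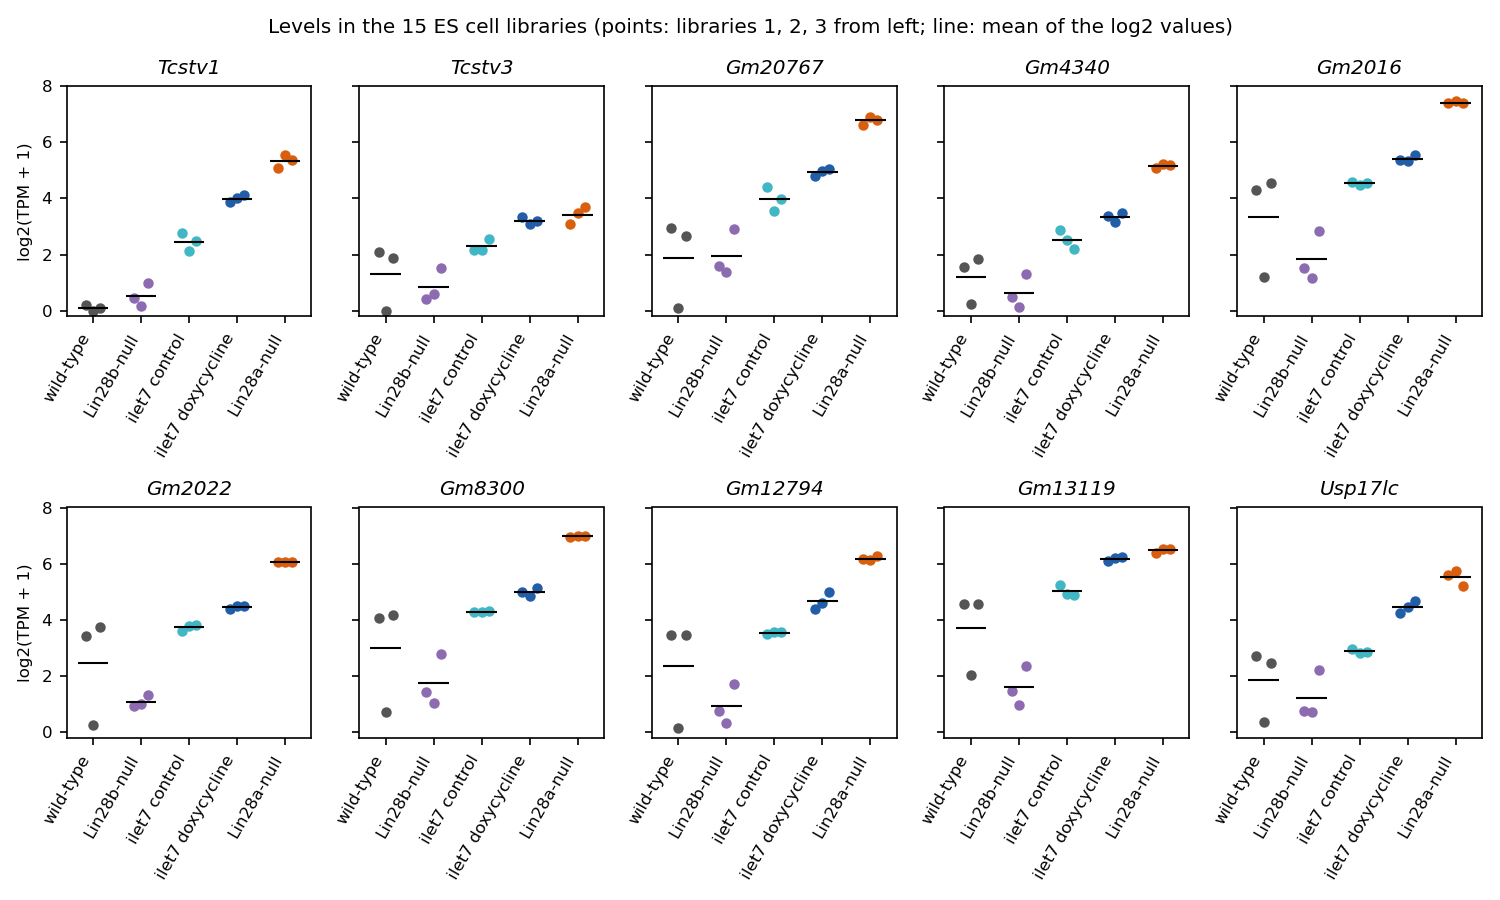
Level of each of the 10 genes in the 15 ES cell libraries, as log2(TPM + 1) on the vertical axis, with 1 point per library (3 per group, in order of library number) and a line at the mean of the log2 values. The group named Lin28b-null is so labelled only, and the second wild-type library is the lowest of its group in every panel. The Lin28a-null libraries lie highest in every panel but that of Tcstv3, where they overlap the doxycycline libraries.

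Loss of Lin28a was accompanied by higher RNA of every member. In Lin28a-null against wild-type ES cells 10 of 10 genes rose, and the libraries of the 2 groups did not overlap for any of them. Among all 16060 genes tested 20.4% rose and 27.7% lay wholly above wild type. The median log2 change of the 10 genes was 3.88 on the log2(TPM + 1) scale, which understates the change of genes near 0, against 0.02 over all genes. All tests were limma with a variance trend, two-sided, with Benjamini-Hochberg adjustment over all genes tested.

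Tcstv1 showed the largest log2 change. It was at 0.150, 0 and 0.0699 TPM in wild-type ES cells and at 33.0, 45.6 and 39.9 TPM in Lin28a-null cells (log2 change 5.23 ± 0.17 SE, adjusted p = 6.83e-06). It was thus hardly detected in wild type and met the mean of 1 TPM needed for testing only through the Lin28a-null libraries. It could therefore not be called lower, and its call is a description. Its near-copy Tcstv3 was at 3.26, 0 and 2.70 TPM in wild type and at only 7.61, 10.0 and 12.1 TPM in Lin28a-null cells (log2 change 2.10 ± 0.54, adjusted p = 0.0202). The Tcstv3 call was lost without Lin28a-null library 2 (adjusted p = 0.0606) or 3 (adjusted p = 0.0650) and with a pseudocount of 0.1 (log2 change 3.33, adjusted p = 0.0813). Gm20767 lay at 6.72, 0.0610 and 5.31 TPM in wild type and at 97.3, 119 and 110 TPM in Lin28a-null cells, 27.0-fold by the means (log2 change 4.88 ± 0.69, adjusted p = 0.00220).

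Gm2016 and Gm8300, both eIF1A-like copies, were the most abundant members in Lin28a-null cells, while the third copy, Gm2022, ranked below Gm20767, Gm13119 and Gm12794. Gm2016 lay at 18.9, 1.28 and 22.5 TPM in wild type and at 167, 176 and 166 TPM in Lin28a-null cells (11.9-fold by the means, log2 change 4.06 ± 0.82, adjusted p = 0.00830). Gm8300 rose from 15.9, 0.648 and 17.2 TPM to 124, 126 and 127 TPM (11.1-fold, log2 change 3.99 ± 0.86, adjusted p = 0.0107), and the 3 knockout values were nearly equal. Gm2022 lay at 9.73, 0.200 and 12.5 TPM against 65.0, 65.3 and 66.4 TPM (8.75-fold, log2 change 3.57 ± 0.84, adjusted p = 0.0149). The summed level of the 3 copies was 33.0 ± 27.0 TPM (SD, n = 3) in wild-type and 360 ± 5.57 TPM in Lin28a-null cells. Their conventional relatives did not follow: Eif1a had a log2 change of −0.08 (95% interval −0.21 to 0.05) and Eif1ax one of −0.06 (−0.32 to 0.19), neither past the test. At group means of 306 and 290 TPM in wild-type and Lin28a-null cells, Eif1a alone was near the summed level of the 3 copies in the knockout. That sum leaves out the close copies Gm5662 and Gm8332, at group means of 253 and 202 TPM in Lin28a-null cells.

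Of the PRAME-like genes, Gm12794 lay at 10.1, 0.119 and 10.0 TPM in wild type and at 71.0, 68.3 and 75.6 TPM in Lin28a-null cells (10.6-fold, log2 change 3.82 ± 0.83, adjusted p = 0.0113). Gm13119 had the highest wild-type level of the 10 genes, at 22.5, 3.08 and 22.9 TPM, and rose to 81.6, 91.0 and 91.9 TPM (5.46-fold, log2 change 2.76 ± 0.64, adjusted p = 0.0143). The deubiquitinase gene Usp17lc rose from 5.62, 0.290 and 4.57 TPM to 47.8, 52.2 and 35.7 TPM (12.9-fold, log2 change 3.66 ± 0.59, adjusted p = 0.00347). For Gm4340, most of whose transcript is shared with other copies, the values were 1.96, 0.189 and 2.56 TPM against 32.8, 36.2 and 35.5 TPM (22.1-fold, log2 change 3.94 ± 0.39, adjusted p = 0.000581). In none of these 4 genes did a wild-type library reach the lowest Lin28a-null value.

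Without wild-type library 2 all 10 genes still rose and lay wholly above wild type, where 24.1% of all genes rose and 35.7% lay wholly above. The log2 changes were smaller for each gene: 5.18 for Tcstv1, 3.97 for Gm20767, 3.46 for Gm4340, 2.98 for Gm2016, 2.91 for Usp17lc, 2.85 for Gm8300, 2.72 for Gm12794, 2.47 for Gm2022, 1.91 for Gm13119 and 1.44 for Tcstv3. Feeder fibroblast markers moved with the same contrast, with 12 of 13 higher in Lin28a-null cells and a summed level of 4915 to 6439 TPM against 2029 to 3772 TPM in wild type, and with 12 of 13 again without wild-type library 2. None of the 13 was at 0 in any cell library, and their part in the result was not tested.

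**Figure D2:**
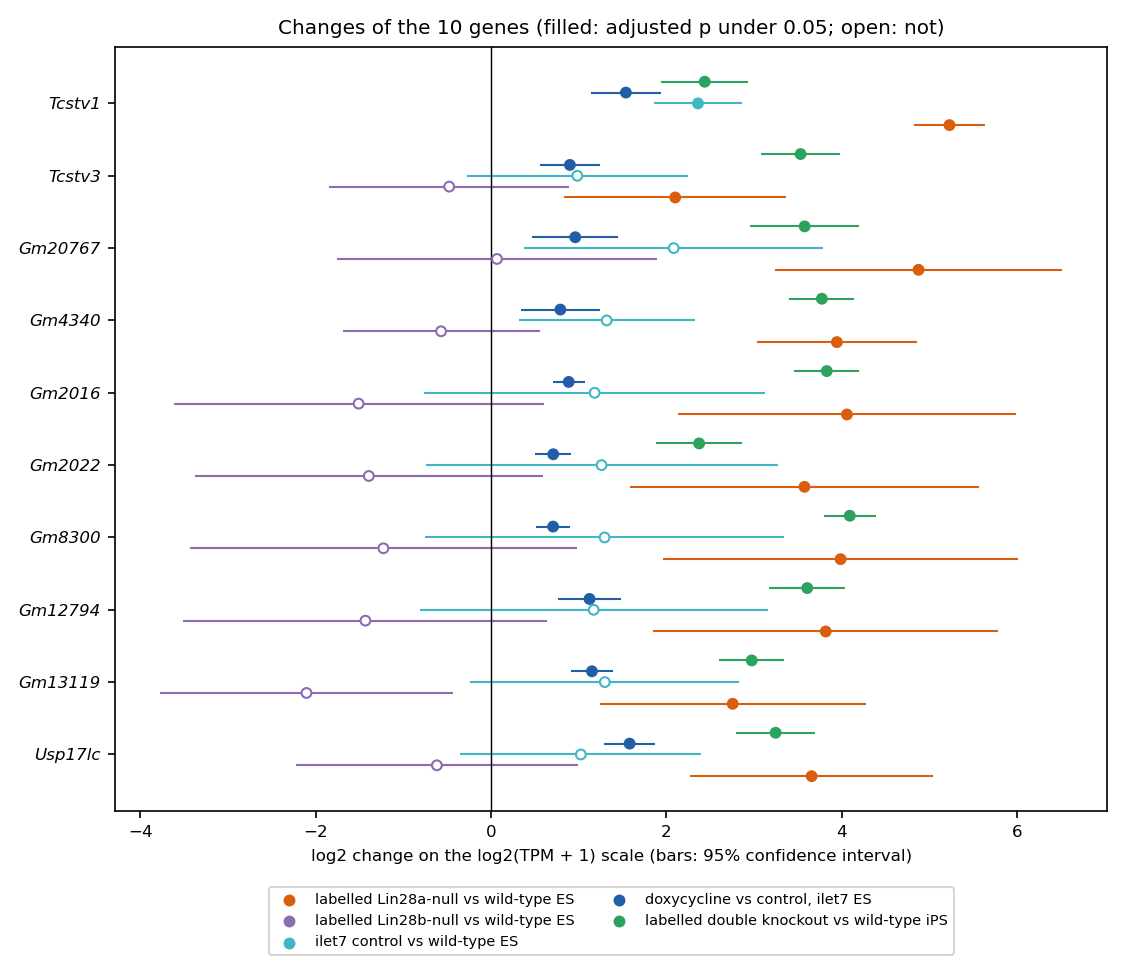
Log2 change on the log2(TPM + 1) scale (horizontal axis) of each of the 10 genes in 5 comparisons of 3 against 3 libraries, as points with 95% confidence intervals, filled where the limma adjusted p was under 0.05. Lin28a-null, doxycycline and labelled double knockout points are filled for all 10 genes, and Tcstv1 has no point for labelled Lin28b-null because it was under the level filter.

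Cells labelled Lin28b-null did not show this rise. Their means were 0.499 TPM for Tcstv1, 0.909 for Tcstv3, 0.657 for Gm4340, 1.07 for Gm12794, 1.14 for Gm2022, 1.68 for Usp17lc, 2.32 for Gm13119, 2.92 for Gm8300, 3.10 for Gm2016 and 3.38 for Gm20767. Library 3 was the highest of the 3 for 10 of 10 genes, for example 4.20 TPM for Gm13119 against 1.8 and 0.971 TPM. Of the 9 genes tested (Tcstv1 was under the filter) 0 passed by limma in either direction, 1 had an unadjusted p under 0.05, and the median log2 change was −1.23. Over all genes 13.4% were called higher and 15.1% lower. The smallest p was that of Gm13119, at −2.11 ± 0.71 (adjusted p = 0.0634), which passed when all 15 ES libraries shared 1 estimate of the spread (adjusted p = 0.00574). The intervals were wide, −3.62 to 0.60 for Gm2016 and −1.76 to 1.89 for Gm20767.

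These results also turned on wild-type library 2. Without it 5 genes fell against wild type, where 14.9% of all genes fell: Gm13119 (−2.95), Gm2016 (−2.59), Gm12794 (−2.53), Gm2022 (−2.50) and Gm8300 (−2.37), which are the 3 eIF1A-like and the 2 PRAME-like genes. The Tcstv genes, Gm4340 and Usp17lc did not pass in that setting either. Because the library was singled out for its low values of these genes, the falls without it are a description only. Compared directly, 10 of 10 genes were higher in Lin28a-null than in labelled Lin28b-null cells, with a median log2 difference of 4.84 (2.58 for Tcstv3 to 5.57 for Gm2016), where 25.8% of all genes tested were higher. Tcstv1, Tcstv3 and Gm4340 averaged under 1 TPM in labelled Lin28b-null cells. They entered that test only through the Lin28a-null libraries, and their calls are a description. In that comparison 12 of 13 feeder markers were higher too, and their part was not tested. The comparisons of Lin28a-null, labelled Lin28b-null and control ilet7 cells with wild type share the same 3 control libraries.

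Before any drug was added, Tcstv1 was the only 1 of the 10 genes called different between the ilet7 line and wild-type ES cells. Control ilet7 cells held 5.75, 3.43 and 4.57 TPM of it, against at most 0.150 TPM in wild type (log2 change 2.36 ± 0.21, adjusted p = 0.000913). That was 1 of 10 genes to rise, a share near the 9.18% of all genes that did. Tcstv1 also entered this test only through the control ilet7 libraries, so its call is a description. The 2 genes whose control ilet7 and wild-type libraries overlapped were Gm2016 and Gm2022. Gm20767 had 20.3, 10.7 and 14.7 TPM and a log2 change of 2.08 ± 0.72 (adjusted p = 0.0899). Without wild-type library 2, 4 genes passed, where 16.8% of all genes rose: Tcstv1 (2.31), Gm20767 (1.18), Gm4340 (0.84) and Gm13119 (0.45). Of the feeder markers 6 of 12 tested were lower in control ilet7 cells (8 of 12, with 1 higher, without wild-type library 2), and their part was not tested. Wild-type ES cells are another line and no matched control for the doxycycline cells, which were compared with control ilet7 cells only.

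Doxycycline for 3 days raised the whole group by a smaller step. In ilet7 ES cells 10 of 10 genes rose over the undosed control with no overlap between libraries, where 13.3% of all 15884 genes tested rose. The median log2 change was 0.93 (0.71 to 1.58), against 0.06 over all genes. Usp17lc moved most, from 6.76, 6.03 and 6.33 TPM to 18.1, 21 and 24.5 TPM (3.32-fold, log2 change 1.58 ± 0.12, adjusted p = 0.000910). Tcstv1 reached 13.5, 15.2 and 16.3 TPM from the control values given above (3.28-fold, log2 change 1.54 ± 0.17, adjusted p = 0.00243). Its partner Tcstv3 rose from 3.53, 3.54 and 4.93 TPM to 9.10, 7.48 and 8.22 TPM (2.07-fold, log2 change 0.90 ± 0.15, adjusted p = 0.00874).

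The PRAME-like genes came next in size. Gm13119 rose from 36.4, 29.4 and 28.9 TPM to 66.6, 72.1 and 74.2 TPM (log2 change 1.15 ± 0.10, adjusted p = 0.00124), within reach of its Lin28a-null level. Gm12794 rose from 10.2, 10.8 and 10.8 TPM to 19.8, 23.5 and 30.5 TPM (log2 change 1.12 ± 0.15, adjusted p = 0.00457). The eIF1A-like copies moved least as a group, with Gm2016 going from 21.2 to 22.9 TPM in controls to 39.3 to 45.7 TPM (log2 change 0.88 ± 0.08, adjusted p = 0.00126), Gm2022 changing by 0.71 ± 0.09 and Gm8300 by 0.71 ± 0.08. Their control libraries were tight, so that a 1.67-fold rise of Gm8300 passed at an adjusted p of 0.00302. Gm20767 (log2 change 0.96 ± 0.21, adjusted p = 0.0221) and Gm4340 (0.79 ± 0.19, adjusted p = 0.0313) varied more.

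Those last 2 calls were the unstable ones. Gm20767 lost its call without control library 3 (adjusted p = 0.0602) or without doxycycline library 1 (0.0543), 2 (0.0604) or 3 (0.0754). Gm4340 lost it without control library 2 (0.0814) or 3 (0.0652), or without doxycycline library 1 (0.0914), 2 (0.0509) or 3 (0.101). When all 15 ES libraries shared 1 estimate of the spread, which takes in the wide wild-type group, only Tcstv1 passed. Of the feeder markers 5 of 12 tested rose with doxycycline, with sums of 2245 to 2510 TPM against 2007 to 2222 TPM, and their part was not tested.

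The doxycycline rise was smaller than the Lin28a-null rise for 7 of 10 genes when the difference itself was tested over the 4 groups, where 12.1% of all genes were lower. Tcstv1 (−3.69 ± 0.24, adjusted p = 2.21e-06), Gm20767 (−3.92 ± 0.81, adjusted p = 0.00450) and Gm4340 (−3.15 ± 0.47, adjusted p = 0.000654) differed most firmly. The 3 genes that did not pass were Tcstv3 (−1.20, 95% interval −2.55 to 0.15), Gm12794 (−2.69, −4.79 to −0.60, adjusted p = 0.0554) and Gm13119 (−1.61, −3.21 to −0.0015, adjusted p = 0.126). Without wild-type library 2 the count was 9, against 14.8% of all genes. It was 3 without Lin28a-null library 2 or doxycycline library 2, and 4 without Lin28a-null library 1, doxycycline library 1 or any 1 of the 3 control ilet7 libraries, where 9.34 to 10.7% of all genes were lower. Of the 13 feeder markers 9 were lower in the same test (12 without wild-type library 2), and their part was not tested.

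In iPS cells labelled double knockout the same list rose again, in a comparison that shares no library with the ES cells. All 10 genes rose with no overlap, where 8.77% of 17557 genes rose and 20.7% lay wholly above wild type. The median log2 change was 3.55, from 2.37 for Gm2022 to 4.09 for Gm8300, against 0.04 over all genes. No wild-type iPS library was lowest for all 10 genes. Wild-type iPS library 2 was lowest for Tcstv1, Tcstv3, Gm20767 and Gm8300, with Gm20767 at 0.069 TPM against 0.868 and 0.686 TPM. Gm8300 rose from 3.35, 2.55 and 2.71 TPM to 61.9, 66.6 and 65.7 TPM (22.6-fold, log2 change 4.09 ± 0.13, adjusted p = 1.91e-05). Gm2016 rose from 2.48, 3.45 and 2.18 TPM to 52.5, 49.4 and 51.4 TPM (18.9-fold, log2 change 3.83 ± 0.16, adjusted p = 4.11e-05). Gm2022, the third copy, reached 8.87, 8.93 and 12.2 TPM from 0.757, 1.3 and 1.31 TPM (8.93-fold, log2 change 2.37 ± 0.21, adjusted p = 0.000648).

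Here Tcstv3 outranked Tcstv1. Tcstv3 rose from 1.59, 1.03 and 1.70 TPM to 27.8, 22.6 and 31.1 TPM (18.9-fold, log2 change 3.53 ± 0.19, adjusted p = 8.61e-05). Tcstv1 rose from 0.573, 0.311 and 0.789 TPM to 8.77, 6.34 and 7.16 TPM (13.3-fold, log2 change 2.44 ± 0.21, adjusted p = 0.000611). Gm20767 reached 13.6, 18.3 and 19.3 TPM from at most 0.868 TPM (31.6-fold, log2 change 3.58 ± 0.26, adjusted p = 0.000307). Tcstv1 and Gm20767 were under 1 TPM in every wild-type iPS library. They thus entered the test only through the labelled double knockout libraries, and their calls are a description. Gm4340 went from 4.13, 3.50 and 2.58 TPM to 59.5, 60.9 and 55.4 TPM (17.2-fold, log2 change 3.77 ± 0.16, adjusted p = 4.11e-05), a level near those of Gm2016 and Gm8300.

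The other 3 genes followed. Gm13119 rose from 5.66, 8.53 and 7.41 TPM to 60.04, 59.3 and 69.2 TPM (8.73-fold, log2 change 2.97 ± 0.16, adjusted p = 7.78e-05). Gm12794 rose from 3.83, 2.66 and 2.24 TPM to 41, 46.4 and 51 TPM (15.8-fold, log2 change 3.61 ± 0.18, adjusted p = 7.39e-05). Usp17lc rose from 1.00, 1.78 and 1.18 TPM to 18.1, 23.4 and 21.2 TPM (15.8-fold, log2 change 3.25 ± 0.19, adjusted p = 0.000127). No call was lost when any 1 of the 6 libraries was left out. Of the feeder markers 1 of 13 rose, with sums of 4750 to 6872 TPM against 3298 to 5221 TPM, and their part was not tested. Of the single-copy relatives Eif1ax fell from 83.3 to 50.02 TPM by the group means (log2 change −0.72 ± 0.09, adjusted p = 0.00237), while Eif1a and Eif1ad did not pass.

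In the embryo pools, with 1 library each and hence no test, the control pool held 13.8 TPM of Tcstv3 and 12.7 TPM of Gm2016 and under 2 TPM of the other 8 genes. After Lin28a siRNA, which went with a fall of Lin28a from 15.9 to 3.03 TPM, Tcstv3 stood at 107 TPM (7.71-fold) and Gm2016 at 46.0 TPM (3.61-fold). Gm4340 went from 0.244 to 25.4 TPM and Gm8300 from 0.316 to 11.4 TPM. Those 2 were nearly silent in the control pool, so their ratios rest on values close to 0.

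The remaining embryo values were low. Gm13119 stood at 1.82 and then 7.30 TPM, Tcstv1 at 0.155 and then 2.48 TPM, and Usp17lc was listed at 0 in the control and at 2.42 TPM after siRNA. Gm20767, Gm12794 and Gm2022 stayed under 2 TPM in both pools, and Gm20767 and Gm12794 were under the mean of 1 TPM needed to be counted. Of the 8 genes counted 7 were at least 2-fold higher on the log2(TPM + 1) scale and 0 lower, with a median log2 difference of 1.77, and Gm2022 (0.929 and 1.20 TPM) was the exception. For Tcstv1, Gm4340, Gm8300 and Usp17lc that call was fixed in advance. With at most 0.316 TPM in the control pool, they could reach the mean of 1 TPM only by rising at least 2-fold on that scale. The call was open for Tcstv3, Gm2016 and Gm13119. Over all 14875 genes 8.28% were at least 2-fold higher and 7.31% lower.

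**Figure D3:**
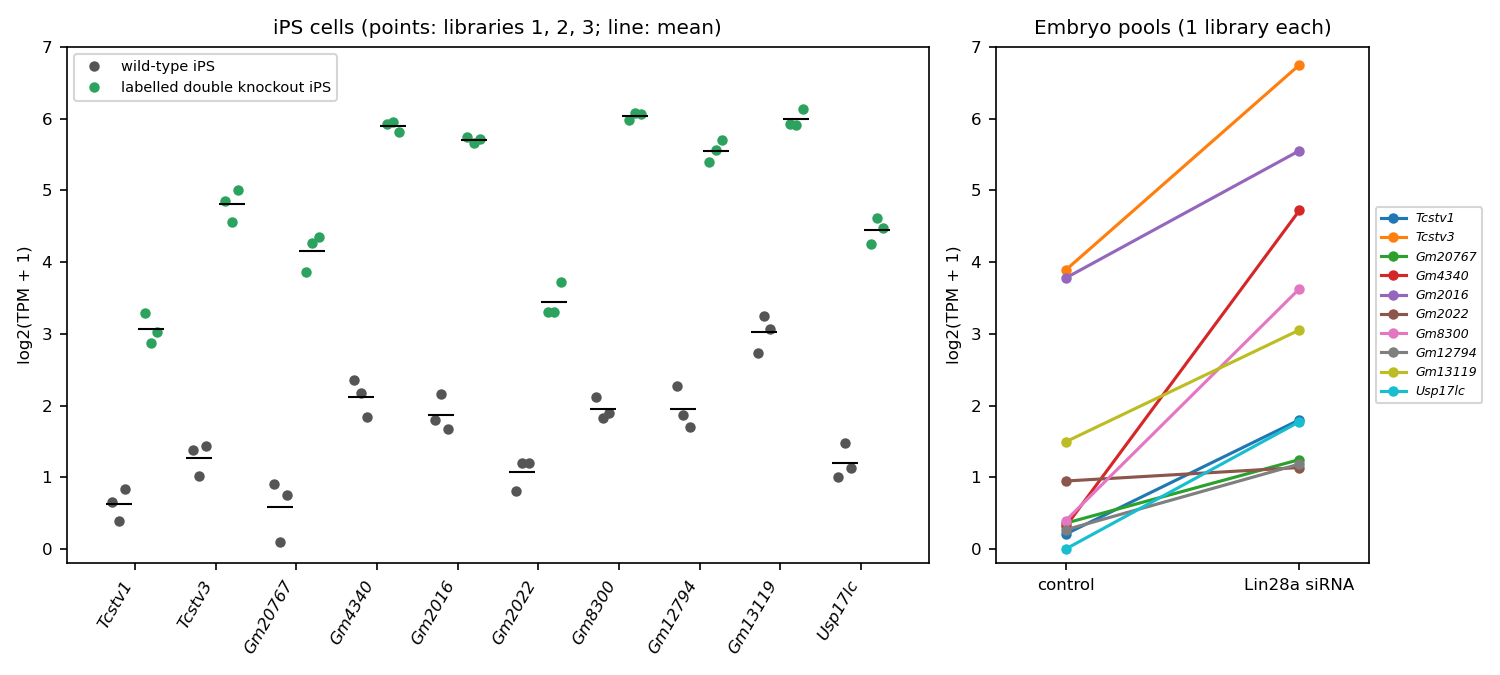
Left, level of each of the 10 genes as log2(TPM + 1) in 3 wild-type and 3 labelled double knockout iPS libraries, with 1 point per library and a line at the group mean. Right, the same measure in the control and Lin28a siRNA embryo pools, 1 library each, joined by gene, where Tcstv3 and Gm2016 are the highest genes in both pools and no line falls.

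The split between near-copies was compared over the groups. Tcstv1 made up 76.8 to 82.0% of the summed TPM of Tcstv1 and Tcstv3 in Lin28a-null cells, 59.7 to 67.0% with doxycycline and 48.1 to 62.0% in control ilet7 cells. In the 2 wild-type ES libraries with any signal it made up 2.52 and 4.41%, and in labelled Lin28b-null cells 21 to 53.4% of very small sums. The iPS cells lay between, at 23.3 to 31.7% in wild type and 18.7 to 24% in labelled double knockout, whose ranges overlapped although both genes rose more than 10 times. In the embryo pools Tcstv1 made up 1.11 and 2.28%. The leading gene of the pair was thus Tcstv1 in Lin28a-null and doxycycline-treated ES cells and Tcstv3 in wild-type ES cells, both iPS groups and both embryo pools. Gm20767, as close in sequence, is not in this split, and its mean in Lin28a-null cells (109 TPM) was above both. In labelled double knockout iPS cells its mean (17.1 TPM) lay between theirs.

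Among the eIF1A-like copies the shares overlapped between many groups. Gm2016 made up 46.2 to 47.9% of the sum of the 3 genes in Lin28a-null cells and Gm8300 34.3 to 35.3%. Other groups were wider, with Gm2016 at 42.4 to 60.2% in wild-type ES and 35.1 to 47.3% in wild-type iPS cells. In labelled double knockout iPS cells Gm8300 led, with 50.2 to 53.3% against 39.5 to 42.6% for Gm2016, while its share in wild-type iPS cells was 35.0 to 50.8%. In the embryo pools Gm2016 made up 91.1% in the control and 78.5% after siRNA. The share of Gm4340 in the sum of all 10 genes was 4.51 to 4.67% in Lin28a-null ES cells and 14.4 to 16.9% in labelled double knockout iPS cells. ES, iPS and embryo tables were normalised separately and their cells differ in origin, so these shares are set side by side without a test.

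**Figure D4:**
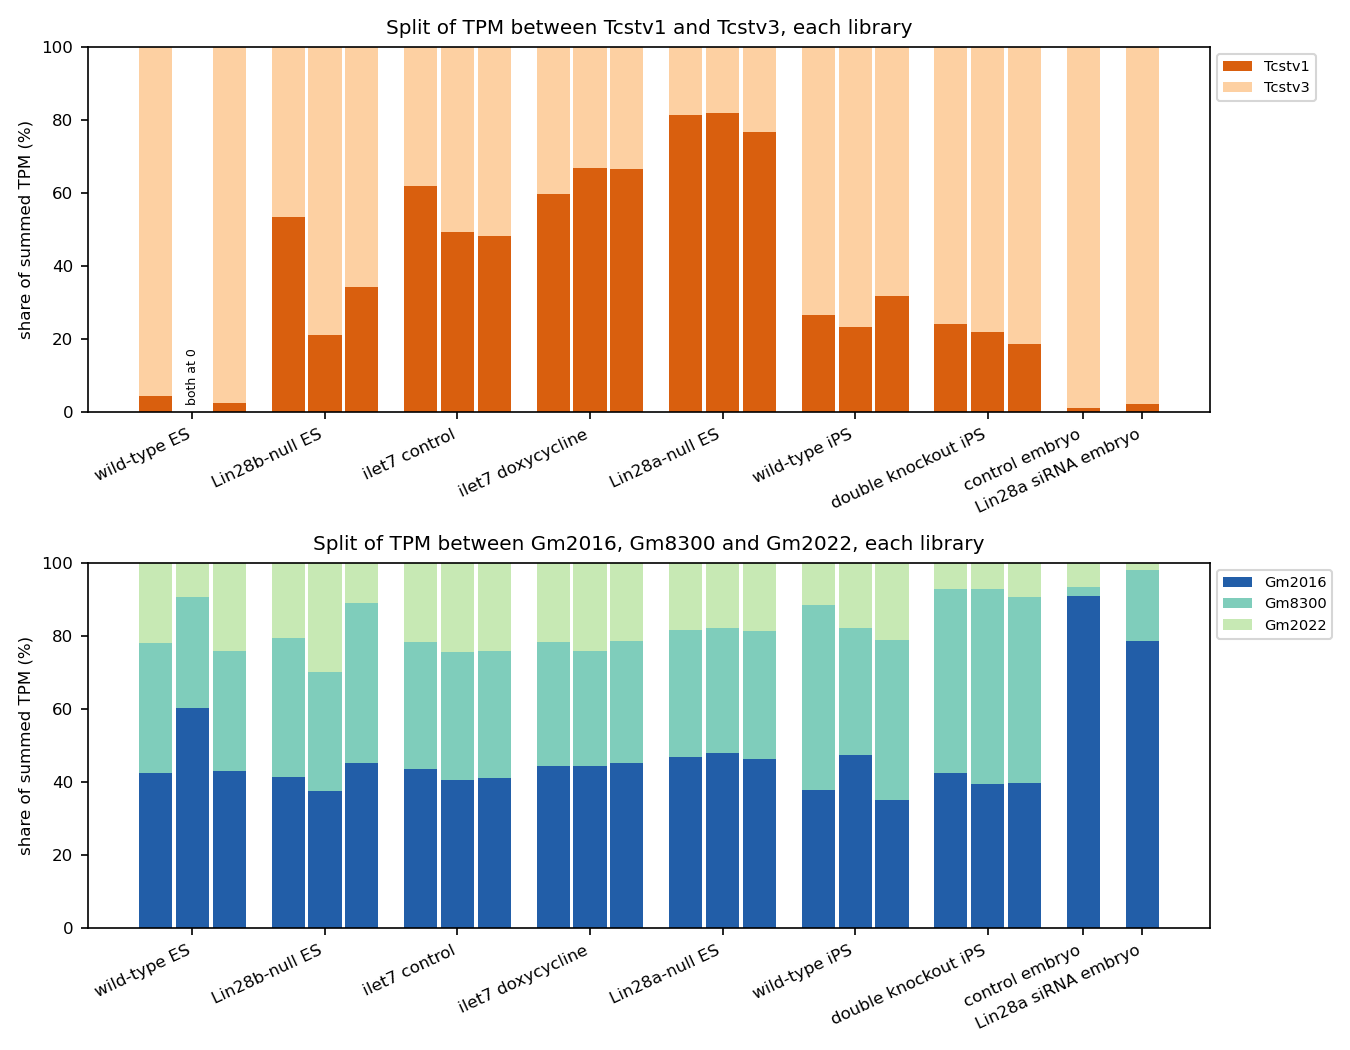
Share (%) of the summed TPM taken by each copy, 1 bar per library in all 9 groups, for Tcstv1 and Tcstv3 (top) and for Gm2016, Gm8300 and Gm2022 (bottom). Tcstv1 takes 76.8 to 82.0% of its pair in Lin28a-null ES cells and 18.7 to 24% in labelled double knockout iPS cells, and no bar is drawn for the pair in the second wild-type ES library, where both genes were at 0.

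Around these genes, most detected coding genes of the same clusters also lay wholly above their wild-type level in Lin28a-null ES cells. That held for 16 of 16 detected genes (at least 1 TPM in 1 wild-type or Lin28a-null library) of the 21 in the chromosome 12 interval, for 11 of 12 in the Tcstv cluster, for 5 of 5 Usp17l genes on chromosome 7 and for 4 of 5 around Gm12794. C130073F10Rik, beside Gm12794, had a negative log2 change of −0.50 (adjusted p = 0.332), or −0.96 without wild-type library 2 (adjusted p = 0.00371). The counts of genes wholly above were the same without wild-type library 2 and include the described genes. Over all genes tested 27.7% lay wholly higher (35.7% without that library). Those shares used a stricter filter, a mean of at least 1 TPM, so they are not a like-for-like background. A copy silent in wild type could be detected only through the Lin28a-null libraries, in which it then lay higher, so the counts are a description. The highest neighbours were the eIF1A-like Gm5662, at 245 to 267 TPM against 0.848 to 19.9 TPM (log2 change 4.80, adjusted p = 0.00552, or 3.65 without wild-type library 2), and Gm8332, at 193 to 208 TPM against 2.44 to 43.2 TPM (log2 change 3.45, adjusted p = 0.0235, or 2.23 without that library). In the chromosome 10 cluster of 7 coding genes only Gm4340 and Gm21304 were detected, the latter at 0.366 to 15.7 TPM across the 3 Lin28a-null libraries.

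The Tcstv cluster itself was uneven in ES cells. B020031M17Rik, a further gene of the cluster, rose with Tcstv1, from at most 0.303 TPM in wild type to 40.5 to 50.3 TPM in Lin28a-null cells (log2 change 5.36 ± 0.18, adjusted p = 6.83e-06, or 5.29 without wild-type library 2). In contrast AF067061 (log2 change 0.37, adjusted p = 0.544), BC147527 (1.35, adjusted p = 0.173) and Gm21761 (1.76, adjusted p = 0.152) did not pass there. Without wild-type library 2 Gm21761 did (0.62, adjusted p = 0.00585), while AF067061 had a log2 change of −0.17 (adjusted p = 0.539) and BC147527 one of 0.45 (adjusted p = 0.122). All 3 rose in labelled double knockout iPS cells, by 4.04, 3.67 and 4.06 on the log2 scale (adjusted p = 2.18e-05, 0.000505 and 0.000209), where B020031M17Rik stayed at 0.759 to 1.40 TPM. AF067061 is the closest copy of Tcstv3, and Gm21761 is that of Gm20767, so which copy a read came from is uncertain for these pairs.

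Gm13119 was a further exception to the cluster pattern. It rose in Lin28a-null cells while its detected neighbours of PRAME-like sequence fell: Gm13128 went from 28.8 to 72.5 TPM down to 9.77 to 13.6 TPM (log2 change −1.65, adjusted p = 0.00924), and Pramef12 from 81.0 to 106 TPM down to 22.3 to 25.9 TPM (log2 change −1.91, adjusted p = 9.58e-05). Wild-type library 2 held the 72.5 TPM of Gm13128, and without it the changes were −1.23 (adjusted p = 0.00200) and −1.80 (adjusted p = 0.000115). With doxycycline Gm13128 rose (log2 change 1.08, adjusted p = 0.000827) and Pramef12 had a log2 change of 0.09 (adjusted p = 0.267). The test of the difference between the 2 effects passed for Gm13128 (2.73, adjusted p = 0.000476) and Pramef12 (2.00, adjusted p = 2.33e-06), and for both without that library (2.31 and 1.89).

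**Figure D5:**
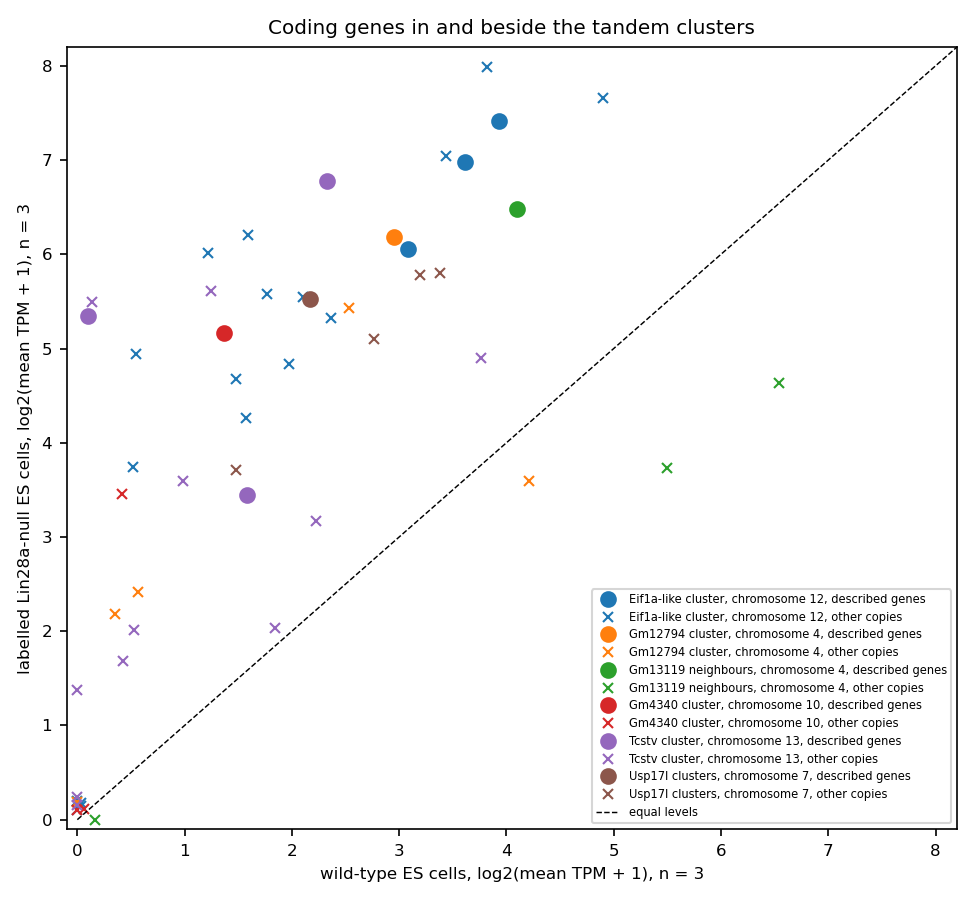
Mean level, as log2(mean TPM + 1), of the coding genes in and beside the clusters in wild-type (horizontal axis) and Lin28a-null (vertical axis) ES cells, 3 libraries each, with the 10 described genes as filled circles and other copies as crosses. Points above the dashed line of equal levels are higher in Lin28a-null cells, as are all 10 described genes, while Gm13128, Pramef12 and C130073F10Rik lie below it.

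The wider set of 2-cell genes, a fixed list of 95 that includes the Zscan4 family and other cluster copies and of which 92 were found, was counted in the same comparisons. In Lin28a-null ES cells 45 of 52 tested rose and 1 fell (median log2 change 3.10), where 20.4% of all genes rose. With doxycycline 37 of 52 rose and 0 fell (0.78), where 13.3% of all genes rose. In labelled double knockout iPS cells 45 of 52 rose and 2 fell (2.95), where 8.77% of all genes rose. In labelled Lin28b-null cells 3 of 36 rose and 0 fell (−0.94), where 13.4% of all genes rose and 15.1% fell. Without wild-type library 2, 46 of 52 rose and 1 fell in Lin28a-null cells (2.31), where 24.1% of all genes rose. In that setting 2 of 36 rose and 24 fell in labelled Lin28b-null cells (−1.81), where 14.9% of all genes fell. In the embryo pools 30 of 45 were at least 2-fold higher and 1 lower (1.57), where 8.28% of all genes were higher and 7.31% lower. The level filter passed 52 genes with the Lin28a-null and 36 with the labelled Lin28b-null libraries. Some genes thus entered only through the group in which they were high, and their calls are a description. The list overlaps the clusters above and was, like the 10 genes, drawn up with earlier results known.

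Over the 15 ES libraries the mean profile of the 10 genes was most like those of Gm4971 (Pearson r = 0.996), Zscan4a (0.992), Kdm4dl (0.992), Gm4027 (0.992) and Gm29125 (0.991) among 16010 genes. Gm4027 is an eIF1A-like copy of the chromosome 12 cluster and Zscan4a belongs to the Zscan4 cluster. Within the list the lowest correlation was that of Tcstv1 with Gm13119 (r = 0.846). These correlations are across libraries of 5 groups that differ strongly in level, so they mainly restate the order of the groups.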

How the data were processed

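RNA was measured by sequencing in 23 mouse samples. The authors deposited gene-level TPM values in 3 tables. Per the labels and the study's methods, the authors' chain was CASAVA 1.8 for base calls, Trimmomatic for trimming, HISAT2 for alignment to mm10, Picard for duplicates, a filter for unique mapping, and StringTie with GENCODE genes for the TPM. Unique mapping removes reads shared by near-identical copies, and duplicate removal can lower high values. TPM keeps no depth, so counting error is unknown and no count test was run.

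Of 53715 genes listed, 53620 matched GENCODE M21 by identifier, which gave symbols and coordinates. Tests used limma 3.58.1 in R 4.3.3 on log2(TPM + 1) for genes averaging 1 TPM or more in the libraries compared (variance trend, the compared groups only, two-sided p adjusted by Benjamini-Hochberg over every gene tested), in 7 comparisons. A gene rose or fell at an adjusted p under 0.05. An exact permutation test of 3 against 3 libraries cannot go below p = 0.1 and was not used. Nothing says whether replicate libraries came from separate cultures, so p-values measure the spread between libraries, which may be technical. Embryo pools were compared without a test. The treatment labels of both pools name a knockdown, so their titles decided which was the control. On data simulated for each two-group comparison, 47 to 74% of genes changed by 1 on the log2 scale and 80 to 96% of those changed by 2 were recovered, with 5 to 14 false calls.

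The 10 genes are named throughout by a rule that lists them. Other genes were named where they share a cluster or family with them, or ranked highest by correlation with their mean profile. Members and lists were chosen with earlier results of these data known. Markers were fixed lists for pluripotent cells, feeder fibroblasts, trophoblast and primitive endoderm. The last 2 summed to 84.1 to 203 and 8.28 to 34.1 TPM in ES cells, to 50.8 to 123 and 16.5 to 30.7 TPM in iPS cells, and to 1607 and 1246, and 373 and 423 TPM in the control and siRNA embryos. Sequences came from GRCm38 with GENCODE M21 and from RefSeq, and primers from the study's list. Alternatives changed the pseudocount (0.1, 0.5), the level filter (5 TPM, or none), the scaling (quantile, median of ratios), the variance trend (none) and the libraries fitted (the whole table, or 1 left out), or added the replicate number as a block.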

Additional observations from a re-analysis of the deposited data

Results flagged for a closer look

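For 7 genes the effect of doxycycline in ilet7 ES cells differed from that of Lin28a loss in ES cells by the test of the difference itself (limma contrast over 4 groups of 3 libraries, adjusted over all genes). The doxycycline log2 change minus the Lin28a-null log2 change was −3.92 for Gm20767 (adjusted p = 0.00450), −3.69 for Tcstv1 (2.21e-06), −3.28 for Gm8300 (0.0271), −3.17 for Gm2016 (0.0253), −3.15 for Gm4340 (0.000654), −2.87 for Gm2022 (0.0436) and −2.08 for Usp17lc (0.0384). The 2 effects are those of different lines, and control ilet7 cells already lay above wild type for Tcstv1, so line and treatment cannot be told apart. The calls of Tcstv1, Gm20767 and Gm4340 were kept in all alternatives and with each library left out in turn. Those of Gm2022 and Usp17lc were lost without any of several libraries: with Lin28a-null library 2 left out, for example, the adjusted p were 0.0780 and 0.0815, and 0.0528 for Gm8300 and 0.0514 for Gm2016.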

How the results depend on the processing

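No gene that passed in either setting changed direction. Of those that did not pass, Gm20767 turned from 0.07 in labelled Lin28b-null cells against wild type to −0.84 without wild-type library 2 and to −0.40 without labelled Lin28b-null library 3. The count of the 10 genes that passed the test stayed within 1.5 times of the value given, except as follows. For labelled Lin28b-null ES cells (0), where every gene that passed under an alternative fell, it was 1 with all libraries in one fit and 1 with the replicate block, the gene being Gm13119 (−2.11, adjusted p = 0.0202 with the block). For doxycycline (10) it was 1 with all libraries in one fit, and for control ilet7 against wild type (1) it was 0 with a mean of at least 5 TPM, which leaves fewer genes tested, and 3 in one fit. For the difference between the doxycycline and Lin28a-null effects (7) it was 4 with a pseudocount of 0.1 and 3 without a filter. The cause was not tested. Leaving out each library in turn gave 9 to 10 for Lin28a-null, 0 to 5 for labelled Lin28b-null, 8 to 10 for doxycycline, 1 to 4 for control ilet7, 3 to 9 for the difference, 10 to 10 for labelled double knockout and 10 to 10 for Lin28a-null against labelled Lin28b-null. The value of 5 for labelled Lin28b-null, 4 for control ilet7 and 9 for the difference came without wild-type library 2.

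Of single genes' values under alternatives, 1003 kept their side of the threshold, 17 gained a call and 62 lost one, and all 20 embryo differences moved with the pseudocount, that of Gm4340 from 4.41 to 6.21 with 0.1. Replicate numbers did not pair the libraries: correlations of the deviations of same-numbered libraries lay between −0.14 and 0.13, and in control ilet7 against wild type each library correlated best with its own number (0.13, 0.03 and 0.05), a hint from the data and not the design. The block took the doxycycline calls of Gm20767 (adjusted p = 0.0501) and Gm4340 (0.0625). With TPM alone, the depth that limits values near 0 is unknown.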
